A study of Homo sapiens with 8 samples.

Results

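The genes described here are the cytosolic translation initiation factors (eIF) and elongation factors (eEF), chosen as the rows of the count matrix whose symbol starts with EIF or EEF, without the EIF2AK kinases and without pseudogenes. Of 13841 rows, 60 were members, and 59 of these were abundant enough to be tested beside 11351 rows in all. The 3 eIF4E-binding protein genes end in P and a digit like pseudogenes but are annotated as protein-coding and were kept, while 15 pseudogene rows and 3 EIF2AK rows were left out. One member, EEF1E1-BLOC1S5, is a readthrough transcript that joins a factor gene to its neighbour.

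RNA came from A549 cells, an established human lung adenocarcinoma line used as a stand-in for alveolar epithelium. All cells had undergone cyclic stretch (15% elongation at 15 cycles per min for 24 h), were kept for 6 more days, and were then sorted by β-galactosidase staining, which marks a lysosomal enzyme used as a sign of senescence. The 4 libraries of stained cells are called positive (numbers 1, 3, 4 and 5; labelled senescent) and the 4 of unstained cells negative (numbers 2, 6, 7 and 8; labelled non-senescent). Unstretched cells were not analysed here, and both groups are sorted fractions of 1 cell line. The question is how stained and unstained cells differ after the same stretch. In bulk RNA, a change in every cell and a change in the share of cells that express a gene cannot be told apart.

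Initiation begins when eIF2, loaded with GTP and the initiator tRNA, joins the small ribosomal subunit together with eIF1, eIF1A, eIF3 and eIF5. The eIF4F complex, made of the cap-binding protein eIF4E, the helicase eIF4A and the scaffold eIF4G, brings the mRNA, and eIF5B joins the subunits. The exchange factor eIF2B reloads eIF2 and is the step that stress kinases block, whereas the 4E-BPs block eIF4E when mTORC1 is inactive. In elongation eEF1A delivers aminoacyl-tRNA and eEF2 moves the ribosome along. Several of these mRNAs begin with a cytosine and a run of pyrimidines, the terminal oligopyrimidine (TOP) motif, through which mTORC1 controls their translation.

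Most factor transcripts had point estimates slightly below 0 in the positive cells, and 2 were higher in every positive library than in any negative one: EIF4A2, a helicase paralog of the eIF4F complex, at 22372 ± 4646 CPM (counts scaled to library size) in positive and 12017 ± 3768 in negative libraries (SD, n = 4 each), and EIF5, the GTPase-activating factor for eIF2, at 46.3 ± 18.8 and 21.4 ± 7.94 CPM. With edgeR (quasi-likelihood, Benjamini-Hochberg adjustment) 0 members had an adjusted p under 0.05, as had 0 rows of the whole matrix (0%). DESeq2's Wald test called 0 members and 0.477% of all rows, and limma voom 0 members and 0 rows of the whole matrix. Of the 59 tested members 13 (22%) had an unadjusted p under 0.05, 2 higher and 11 lower, where the share over all tested rows was 14.4%, made up of 7.52% higher and 6.85% lower. The log2 fold change (positive over negative) was below 0 in 44 members (74.6%) and in 51.9% of all tested rows. Its median was -0.22 over members and -0.02 over all rows. The groups did not overlap in 5 members, or 8.47%, which is close to the 9.14% over all rows. They were 2 higher (5% of all rows) and 3 lower (4.14%).

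Library totals ranged from 5634961 to 7990839 counts. Positive 1 and negative 2 stood apart from the rest, and for the members this was plain, since negative 2 held the highest of the 8 values in 25 of 59 members and positive 1 the lowest in 20. The share of all rows with an unadjusted p under 0.05 was 9.7% without negative 2, where 7 lower and 2 higher members had one, and 10.4% without positive 1, where 11 lower and 2 higher members did. Without both libraries that share was 10%, the median over members was -0.10, still with 44 of 59 below 0, and 8 lower and 2 higher members had such a p. The lower members were not the same ones in each fit. Of the 11 lower with all libraries, 7 kept such a p without negative 2, 7 without positive 1 and 6 without both. The summed CPM of 6 epithelial markers (KRT8, KRT18, KRT19, KRT7, EPCAM and CDH1) was 2530 to 2992 in positive and 2760 to 3562 in negative libraries, and that of the 4 fibroblast markers with a row was at most 13.01. For the 2 leukocyte markers with a row, LYZ and CD14, the sum was 48.4 to 50.5 in positive and 36.4 to 51.6 in negative libraries. The 1 endothelial marker with a row, CDH5, was at most 1.18. Whether each library was a culture of its own is not stated in the labels. The p-values therefore reflect the spread among these 8 samples, part of which may be technical.

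**Figure D1:**
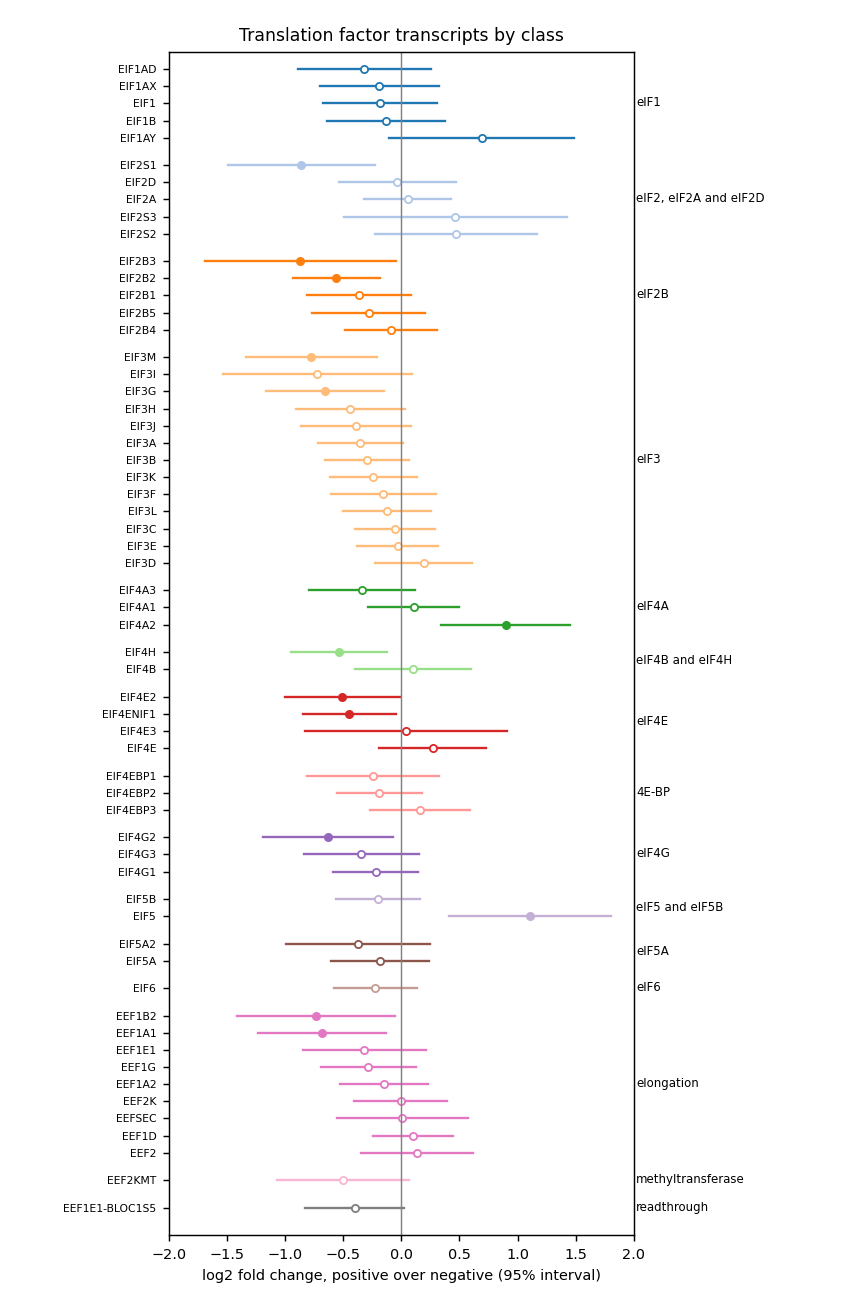
Log2 fold change (horizontal axis, positive over negative) of the 59 tested factor transcripts, grouped by factor class, with 95% intervals from edgeR's quasi-likelihood fit; filled points have an unadjusted p under 0.05 and open points do not. EIF4A2 and EIF5 are the 2 filled points right of 0, and the other 11 filled points lie left of it.

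Starts of members whose RefSeq transcripts begin with a TOP-like sequence are shown first, because such starts were found in members with fold changes on both sides of 0. Each line gives 30 bases, 5′ to 3′, from 10 bases before the annotated start to 20 from it, in GRCh38.p14, with the first C and its run of pyrimidines in capitals.
EIF4A2, chr3:186783567-186783596, plus strand: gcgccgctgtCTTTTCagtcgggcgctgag
EIF2S3, chrX:24054946-24054975, plus strand: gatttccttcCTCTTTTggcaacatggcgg
EEF2, chr19:3985444-3985473, minus strand: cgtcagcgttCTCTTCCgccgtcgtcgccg
EEF1A1, chr6:73521013-73521042, minus strand: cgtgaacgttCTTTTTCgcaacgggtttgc
EEF1B2, chr2:206159885-206159914, plus strand: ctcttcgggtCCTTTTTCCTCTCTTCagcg
EIF3M, chr11:32583821-32583850, plus strand: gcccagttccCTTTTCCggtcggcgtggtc
The log2 fold changes of these were 0.90 for EIF4A2, 0.46 for EIF2S3, 0.13 for EEF2, -0.68 for EEF1A1, -0.74 for EEF1B2 and -0.78 for EIF3M.

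A start of C followed by 4 or more pyrimidines was found in 12 of the 49 members searched (24.5%) and in 5.14% of the 27305 genes of the RefSeq table. The other 6 members with it were EIF2A, EIF2D, EIF3D, EIF3F, EIF3K and EIF4B, all with log2 fold changes between -0.24 and 0.19. The median was 0.01 over the 12 members with such a start, 6 of them below 0, and -0.28 over the 36 tested members searched without it, 30 of them below 0. This split was made after the values had been seen and was not tested. EIF3E, EIF3H and EEF1D, classic TOP mRNAs, were not among those searched, and their log2 fold changes were -0.03, -0.44 and 0.10. EEF1G, also in the list of TOP transcripts described below, was searched without such a start being found, and was at -0.28. The split by annotated start is therefore not a split between TOP and other mRNAs.

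The upstream sequences of EIF4A2 and EIF5 are shown because these members were the ones higher at an unadjusted p under 0.05. Each run gives the 150 bases before a RefSeq start in GRCh38.p14, plus strand, with matches to the motifs in capitals; EIF5 has 2 listed starts.
EIF4A2, chr3:186783427-186783576: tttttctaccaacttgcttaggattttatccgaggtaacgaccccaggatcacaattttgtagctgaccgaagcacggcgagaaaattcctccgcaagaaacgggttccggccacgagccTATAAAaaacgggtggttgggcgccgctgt
EIF5 (first), chr14:103334087-103334236: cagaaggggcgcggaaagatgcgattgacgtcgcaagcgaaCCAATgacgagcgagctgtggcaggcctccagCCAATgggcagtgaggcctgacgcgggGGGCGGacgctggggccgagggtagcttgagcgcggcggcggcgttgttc
EIF5 (second), chr14:103334738-103334887: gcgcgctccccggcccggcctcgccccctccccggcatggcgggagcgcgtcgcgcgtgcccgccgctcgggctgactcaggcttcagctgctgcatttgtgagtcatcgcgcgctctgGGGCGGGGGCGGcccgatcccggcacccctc
The EIF4A2 run holds TATAAA starting 30 bases before the start. The first EIF5 run holds CCAAT at 109 and 77 bases and GGGCGG at 50 bases before it, and the second holds GGGCGG at 31 and 25 bases, so no motif searched is shared between EIF4A2 and EIF5 in these runs.

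Motifs were searched on both strands of the 300-base windows (250 bases before to 50 after a start). The shares for all genes are over the 27305 genes of the RefSeq table, not over the 11351 rows tested here. TATAAA stood in 3 of 49 members (6.12%) and in 14.0% of all genes, CCAAT in 46.9% and 39.7%, and GGGCGG in 77.6% and 48.3%. CACGTG, the E-box that MYC can bind, stood in 13 members (26.5%) and 8.77% of genes, and CCGGAAG, an ETS-type element, in 14 members (28.6%) and 12.2%. TGATGNAA, the core of ATF4-type elements, stood in 1 member, EIF4E3, and in 4.46% of genes, and TCTCGCGA in 0 members and 1.37%. Of the 13 members at an unadjusted p under 0.05, the E-box stood in EIF2B3 and EIF4H, and the ETS-type element in EIF2B2, EIF3M, EIF4E2 and EEF1B2.

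The eIF4A helicases unwind the leader of the mRNA as part of eIF4F. EIF4A2 stood at 26989, 20926, 16525 and 25049 CPM in positive 1, 3, 4 and 5 and at 13567, 14789, 6452 and 13261 CPM in negative 2, 6, 7 and 8. Every positive library was above every negative one, and negative 7 was the lowest by far. This gave a log2 fold change of 0.90 ± 0.26 (SE; 95% interval 0.34 to 1.45; edgeR adjusted p 0.309). The direction held in all 19 alternatives with an unadjusted p under 0.05 in each, at 0.69 to 1.06 and adjusted p from 0.0924 with DESeq2 to 0.478, and the lowest value with 1 library left out was 0.69, without negative 7.

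The EIF4A2 row made up 2.87%, 2.16%, 1.67% and 2.64% of all counts in positive 1, 3, 4 and 5, but no more than 1.43% in any negative library, with 1.17%, 1.43%, 0.618% and 1.41% in negative 2, 6, 7 and 8. The rows of all other members summed to 2.06% to 2.15% of the counts of positive and 2.10% to 2.20% of those of negative libraries. Such a share depends on the amplicon as well as on the transcript, so it gives no order of mRNA levels between genes. EIF4A2 lies on chromosome 3 at 186783205 to 186789900 (GRCh38, GENCODE 29), is protein-coding, and encloses 5 snoRNA genes, among them SNORD2, SNORA4, SNORA63 and SNORA81. It overlaps RFC4, whose log2 fold change was -0.71 at 21.7 ± 3.81 and 35.5 ± 17.5 CPM. The sources used here do not give the strand setting of the counting, so reads of overlapping genes may not have been told apart.

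EIF4A1, the main eIF4A of most growing cells, had overlapping groups, at 3960, 2504, 2887 and 2651 CPM in positive 1, 3, 4 and 5 and at 2967, 2919, 2704 and 2557 in negative 2, 6, 7 and 8. Its log2 fold change was 0.11 (-0.29 to 0.50) and -0.06 without positive 1, the library with the highest value. EIF4A3, a subunit of the exon junction complex and not of eIF4F, was at -0.34 (-0.80 to 0.12) and at -0.54 without positive 1. Whether the 3 helicases differ from each other in their change was not tested.

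EIF5 makes eIF2 hydrolyse its GTP once the start codon is found. It stood at 71.7, 32.4, 31.8 and 49.0 CPM in positive 1, 3, 4 and 5 and at 17.3, 29.1, 12.4 and 27.0 CPM in negative 2, 6, 7 and 8. The groups did not overlap, but positive 3 and 4 were only just above negative 6. EIF5 had a log2 fold change of 1.11 ± 0.32 (SE; 0.41 to 1.81; edgeR adjusted p 0.309), with 0.82 when positive 1 was left out and 0.75 when negative 2 was left out too, and an unadjusted p under 0.05 was kept in all 19 alternatives. EIF5 lies on chromosome 14 at 103333544 to 103345025 and encloses SNORA28. EIF5B, the GTPase that joins the subunits, was at -0.20 (-0.57 to 0.16).

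**Figure D2:**
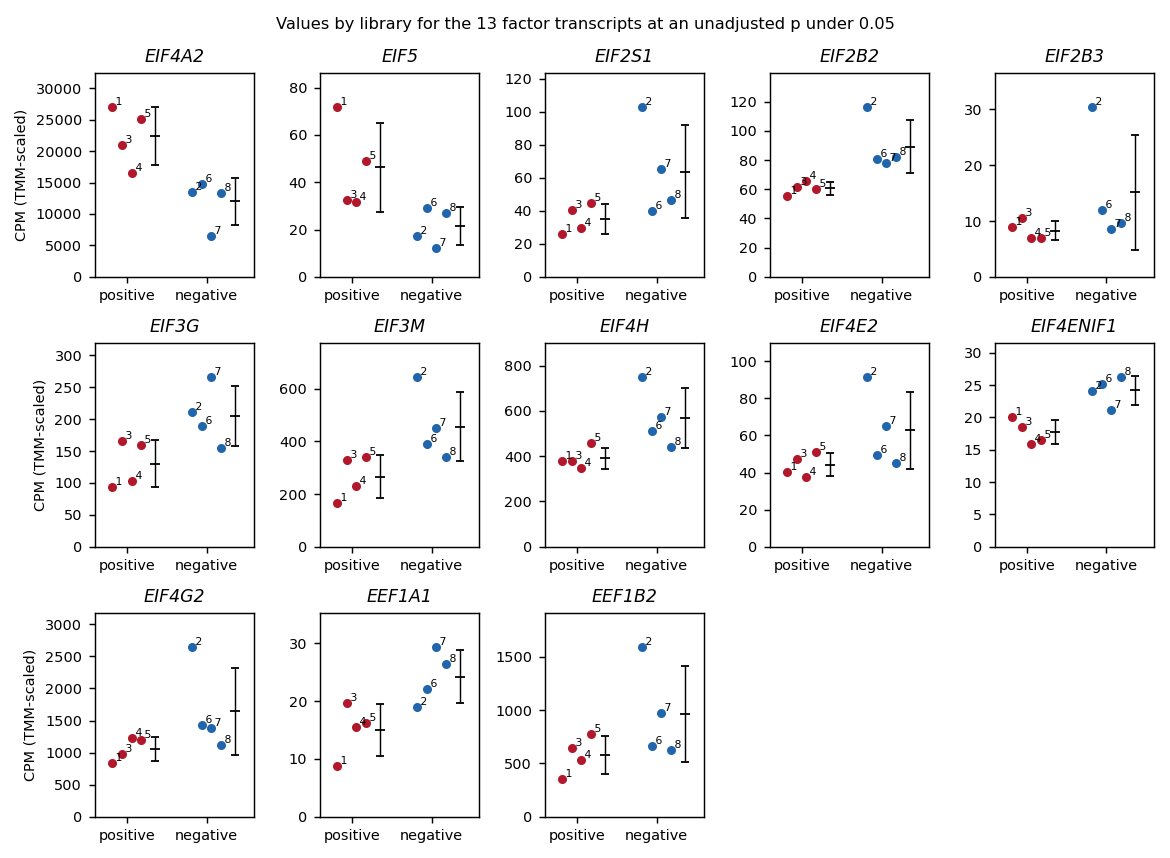
CPM (vertical axes, from 0) in each library for the 13 factor transcripts with an unadjusted p under 0.05; red points are positive and blue points negative libraries, each with its number, and black bars are the mean ± SD of 4 libraries. EIF4A2 and EIF5 are higher in all positive libraries, and negative 2 is the highest point for EIF2S1, EIF2B2, EIF2B3, EIF3M, EIF4H, EIF4E2, EIF4G2 and EEF1B2.

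The 2 members that were higher both enclose a snoRNA gene on their own strand, as do 9 of the 59 tested members in GENCODE 29. The other 7 had log2 fold changes of 0.13 (EEF2), 0.11 (EIF4A1), -0.19 (EIF1AX), -0.22 (EIF4G1), -0.35 (EIF3A), -0.63 (EIF4G2) and -0.74 (EEF1B2). The median was -0.19 over the 9 and -0.23 over the 50 without, and 5 of the 9 and 39 of the 50 were below 0. This property was looked up after the values had been seen and was not tested.

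The eIF2 trimer binds the initiator tRNA, and its α subunit, from EIF2S1, carries the serine that stress kinases phosphorylate. EIF2S1 stood at 25.7, 40.2, 29.3 and 45.0 CPM in positive 1, 3, 4 and 5 and at 102.7, 39.9, 65.5 and 46.6 in negative 2, 6, 7 and 8. Negative 6 fell within the positive range, and negative 2 was more than any other library. For EIF2S1 the log2 fold change was -0.86 ± 0.29 (SE; edgeR adjusted p 0.309) and -0.51 without negative 2, -0.39 without both positive 1 and negative 2. The genes of the other subunits had point estimates above 0, EIF2S2 (β) at 0.47 (-0.22 to 1.17) and EIF2S3 (γ) at 0.46 (-0.50 to 1.42).

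EIF2S3 ranged from 410 to 668 CPM in positive libraries and from 341 to 647 in negative 6, 7 and 8, but was at 85.8 in negative 2. EIF2S2 was likewise lowest in negative 2, at 23.8 CPM, where the other libraries ranged from 43.1 to 97.4. Without negative 2 their log2 fold changes were 0.14 and 0.24. EIF2A and EIF2D, which can deliver initiator tRNA by other routes, were at 0.05 and -0.03.

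All 5 genes of eIF2B had a log2 fold change below 0, with a median of -0.36, where 51.9% of all tested rows were below 0. An unadjusted p under 0.05 was found for 2 of them, both lower, and for 14.4% of all rows (6.85% lower). EIF2B2, the β subunit of the regulatory core, stood at 55.1, 61.7, 65.3 and 60.2 CPM in positive 1, 3, 4 and 5 and at 116, 80.7, 77.7 and 82.1 in negative 2, 6, 7 and 8. The groups did not overlap and the positive libraries lay within a narrow range. EIF2B2 had a log2 fold change of -0.56 ± 0.17 (SE; edgeR adjusted p 0.309), -0.39 without negative 2 and -0.34 without both positive 1 and negative 2, with an unadjusted p under 0.05 in all 19 alternatives.

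EIF2B3, the γ subunit, was at 8.84, 10.45, 6.93 and 6.95 CPM in positive and 30.4, 12.0, 8.65 and 9.55 CPM in negative libraries, in the same order of numbers. Most of the size of its difference rested on negative 2: the log2 fold change was -0.87 with all libraries and -0.26 without negative 2. EIF2B5, the catalytic ε subunit, was at 30.0, 20.8, 14.5 and 20.7 CPM in positive and 24.0, 26.9, 27.0 and 26.5 in negative libraries, a log2 fold change of -0.28 (-0.77 to 0.21), since positive 1 lay above all negative libraries and the other 3 below. It was -0.48 without positive 1 and -0.12 without positive 4. EIF2B1 and EIF2B4 were at -0.36 and -0.09, with EIF2B1 at -0.15 without negative 2.

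The eIF3 complex is the largest initiation factor and bridges the small subunit and eIF4G. Of its 13 tested genes 12 had a log2 fold change below 0, with a median of -0.29, against 51.9% of all rows below 0, and EIF3D, a cap-binding subunit, was at 0.19. Only EIF3M and EIF3G had an unadjusted p under 0.05 (15.4% of the 13), a share near the 14.4% over all rows. EIF3M stood at 167, 328, 229 and 341 CPM in positive 1, 3, 4 and 5 and at 644, 390, 450 and 341 in negative 2, 6, 7 and 8. The groups were parted by positive 5 at 340.5 and negative 8 at 341.4 CPM, so the separation was narrow.

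For EIF3M the log2 fold change was -0.78 ± 0.26 (SE; edgeR adjusted p 0.309), -0.55 without negative 2 and -0.37 without both positive 1 and negative 2, with an unadjusted p under 0.05 in all 19 alternatives. EIF3G, whose product has an RNA recognition motif, stood at 93.4, 165, 103 and 159 CPM in positive and at 212, 189, 266 and 154 in negative libraries, with negative 8 within the positive range. Its log2 fold change was -0.66 ± 0.23 (SE; edgeR adjusted p 0.312) and -0.62 without negative 2. It was -0.54 without positive 4 and -0.51 without negative 7, its highest library, and edgeR's unadjusted p was not under 0.05 in either fit. EIF3A, the scaffold subunit, was at 158, 211, 189 and 194 CPM in positive and 280, 243, 238 and 200 in negative libraries, a log2 fold change of -0.35 (-0.72 to 0.01).

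The other subunit genes ranged from -0.72 for EIF3I, at between 5.86 and 26.0 CPM, to -0.03 for EIF3E. EIF3I, too, had its highest value in negative 2 and was at -0.16 without it, and EIF3H (-0.44, -0.91 to 0.03) its lowest in positive 1, at 162 CPM against 280 to 389 elsewhere, with a log2 fold change of -0.26 without it. EIF3C has a near-identical copy, so its value of -0.05 may mix reads of both. The eIF3 median was -0.16 without negative 2 and -0.11 without both positive 1 and negative 2.

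Among the helpers of eIF4A, EIF4H stood at 379, 381, 346 and 457 CPM in positive 1, 3, 4 and 5 and at 749, 509, 571 and 442 in negative 2, 6, 7 and 8. Negative 8 lay below positive 5, and negative 2 was highest. EIF4H had a log2 fold change of -0.54 ± 0.19 (SE; edgeR adjusted p 0.312) and -0.36 without negative 2. EIF4B, the other helper, was at 0.10 (-0.40 to 0.60).

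EIF4E, which binds the cap, was at 57.6, 64.7, 79.8 and 81.0 CPM in positive and 53.1, 79.7, 41.5 and 60.9 in negative libraries, a log2 fold change of 0.27 (-0.19 to 0.73) with wide overlap, and 0.13 without negative 7 or 0.45 without negative 6. EIF4E2, the cap-binding homologue 4EHP that represses translation, was at 40.2, 47.2, 37.8 and 51.3 CPM in positive and 91.5, 49.6, 65.0 and 45.2 in negative libraries. Its log2 fold change was -0.51 (-1.005 to -0.01) and -0.25 without negative 2. EIF4E3 was at 0.04 and was lowest in negative 2, at 3.05 CPM against 8.89 to 17.4 elsewhere.

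EIF4ENIF1 encodes 4E-T, which carries eIF4E into the nucleus and to processing bodies. It stood at 20.02, 18.6, 15.9 and 16.5 CPM in positive 1, 3, 4 and 5 and at 24.1, 25.2, 21.1 and 26.2 in negative 2, 6, 7 and 8. The groups did not overlap, and neither positive 1 nor negative 2 stood apart. EIF4ENIF1 had a log2 fold change of -0.45 ± 0.18 (SE; edgeR adjusted p 0.321), -0.44 when negative 2 was left out and -0.49 when positive 1 was left out as well, and the unadjusted p was under 0.05 in 12 of 19 alternatives.

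The 4E-BPs showed no member at an unadjusted p under 0.05, where 14.4% of all tested rows had one. With 3 genes this does not set them apart. EIF4EBP1 was at 83.6, 188, 215 and 158 CPM in positive and 165, 225, 221 and 153 in negative libraries, a log2 fold change of -0.24 (-0.81 to 0.32), with positive 1 far below the rest and -0.03 without it. EIF4EBP2 and EIF4EBP3 were at -0.19 and 0.16. RNA levels do not show phosphorylation, on which the binding of these proteins to eIF4E depends.

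Of the scaffolds, EIF4G1 was at 261, 219, 304 and 236 CPM in positive and 292, 277, 270 and 349 in negative libraries, a log2 fold change of -0.22 (-0.59 to 0.14) that was -0.11 without negative 8. EIF4G2 encodes DAP5, a relative of eIF4G that lacks the binding site for eIF4E. It stood at 832, 982, 1233 and 1197 CPM in positive 1, 3, 4 and 5 and at 2645, 1436, 1381 and 1111 in negative 2, 6, 7 and 8. Negative 2 was far above the other 7 libraries, and the log2 fold change of -0.63 ± 0.26 (SE; edgeR adjusted p 0.320) was -0.29 without it and -0.18 without both positive 1 and negative 2. EIF4G3 was at -0.34 (-0.83 to 0.15) and at -0.15 without positive 1.

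**Figure D3:**
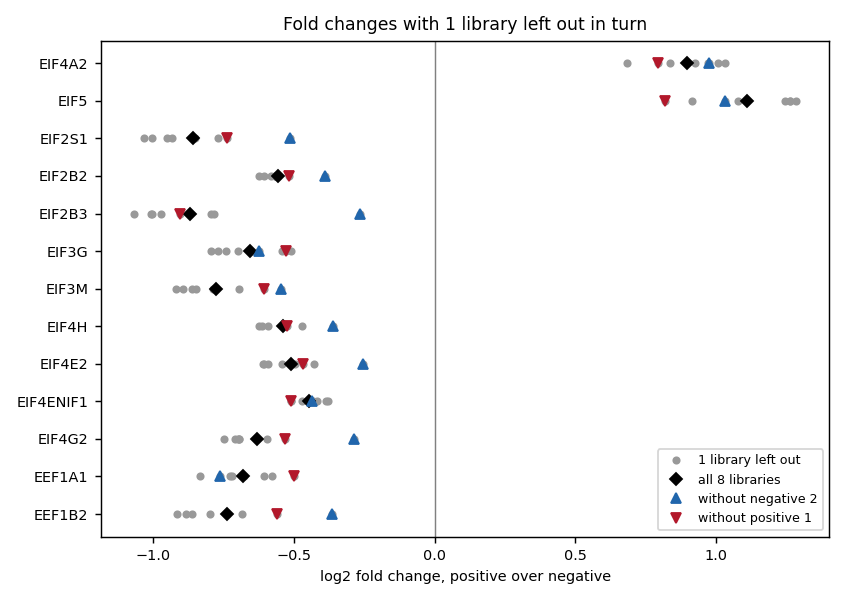
Log2 fold change (horizontal axis, positive over negative) of the 13 transcripts with an unadjusted p under 0.05, with all 8 libraries (black diamonds) and with each library left out in turn (grey points; blue and red triangles mark negative 2 and positive 1). All points keep their side of 0, and those of EIF2B3, EIF4E2 and EIF4G2 come closest to it, without negative 2.

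Among the factors of start codon choice and subunit joining, 0 of the eIF1 genes and EIF6 had an unadjusted p under 0.05 in edgeR's test. Such a p was found for 14.4% of all tested rows, so 0 among so few genes does not set them apart. EIF1 was at 889, 1733, 1992 and 1428 CPM in positive and 1555, 1903, 1763 and 1631 in negative libraries, a log2 fold change of -0.18 (-0.67 to 0.31), and positive 1 was the lowest by far. EIF1AX, EIF1B and EIF1AD were at -0.19, -0.14 and -0.32. EIF1AY, the Y-linked copy of EIF1AX, was at 0.69 (-0.10 to 1.48), and the close paralogs may share reads. EIF6, which keeps the ribosomal subunits apart, was at 199, 223, 210 and 190 CPM in positive and 294, 229, 236 and 202 in negative libraries, a log2 fold change of -0.23 (-0.58 to 0.13) that was -0.10 without negative 2, its highest library.

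EIF5A, the hypusine-bearing factor that relieves stalled ribosomes, was at 3020, 2461, 2515 and 2193 CPM in positive and 3924, 2430, 2496 and 2720 in negative libraries. Its log2 fold change was -0.18 (-0.61 to 0.24) and 0.01 without negative 2. EIF5A2 was at -0.37 (-0.99 to 0.25) and at -0.06 without negative 2. EIF5AL1, which is close in sequence to EIF5A, had 0 to 11 counts per library and was the 1 member not tested.

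The elongation class was set by symbol, so it includes EEF1E1 and the kinase gene EEF2K. Of its 9 tested genes 6 had a log2 fold change below 0, with a median of -0.15, where 51.9% of all rows were below 0. An unadjusted p under 0.05 was found for 2 of them, both lower, where 6.85% of all rows were lower. The class median was -0.07 without negative 2 and also without negative 7. EEF1A1 was at 8.84, 19.6, 15.5 and 16.3 CPM in positive 1, 3, 4 and 5 and at 19.0, 22.0, 29.3 and 26.4 in negative 2, 6, 7 and 8. Only positive 3 and negative 2 overlapped. The log2 fold change was -0.68 ± 0.25 (SE; edgeR adjusted p 0.312), -0.76 without negative 2 and -0.58 without both positive 1 and negative 2. It was -0.50 without positive 1. EdgeR's unadjusted p was not under 0.05 without negative 7, without negative 8 or with scaling by library totals.

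The EEF1A1 row held just 53 to 190 counts per library, and 9 rows of its pseudogenes held 73 to 108 counts in sum, so the estimate for EEF1A1 is uncertain where reads of such copies were divided. EEF1A2, the paralog of muscle and nerve, was at -0.15 (-0.53 to 0.23), with 246 to 380 CPM. Counts of different amplicons were not compared between the genes.

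EEF1B2 encodes the β subunit of the exchange factor that reloads eEF1A. It stood at 351, 648, 535 and 780 CPM in positive and at 1592, 664, 972 and 628 in negative libraries, where negative 2 was far above the rest and negative 6 and 8 lay within the positive range. The log2 fold change was -0.74 ± 0.31 (SE; edgeR adjusted p 0.324), -0.37 without negative 2 and -0.18 without both positive 1 and negative 2. Its partners EEF1G (-0.28, -0.69 to 0.12) and EEF1D (0.10, -0.24 to 0.45) had intervals that spanned 0, and EEF1G was at -0.17 without positive 1.

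EEF2 was at 1515, 1442, 1623 and 1184 CPM in positive and 797, 1605, 1587 and 1271 in negative libraries, a log2 fold change of 0.13 (-0.35 to 0.61) and -0.03 without negative 2, which was the lowest. EEF2K, the kinase that inhibits eEF2, was at 31.7, 37.6, 25.2 and 35.4 CPM in positive and 32.9, 31.6, 35.97 and 30.1 in negative libraries, a log2 fold change of -0.01 (-0.41 to 0.40). EEFSEC, which delivers selenocysteine, was at 0.01, EEF1E1 at -0.32 and EEF2KMT, which methylates eEF2, at -0.50 (-1.07 to 0.06). Without negative 2, EEF1E1 was at -0.07 and EEF2KMT at -0.16. EEF1E1-BLOC1S5, which shares exons with EEF1E1, was at -0.40.

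**Figure D4:**
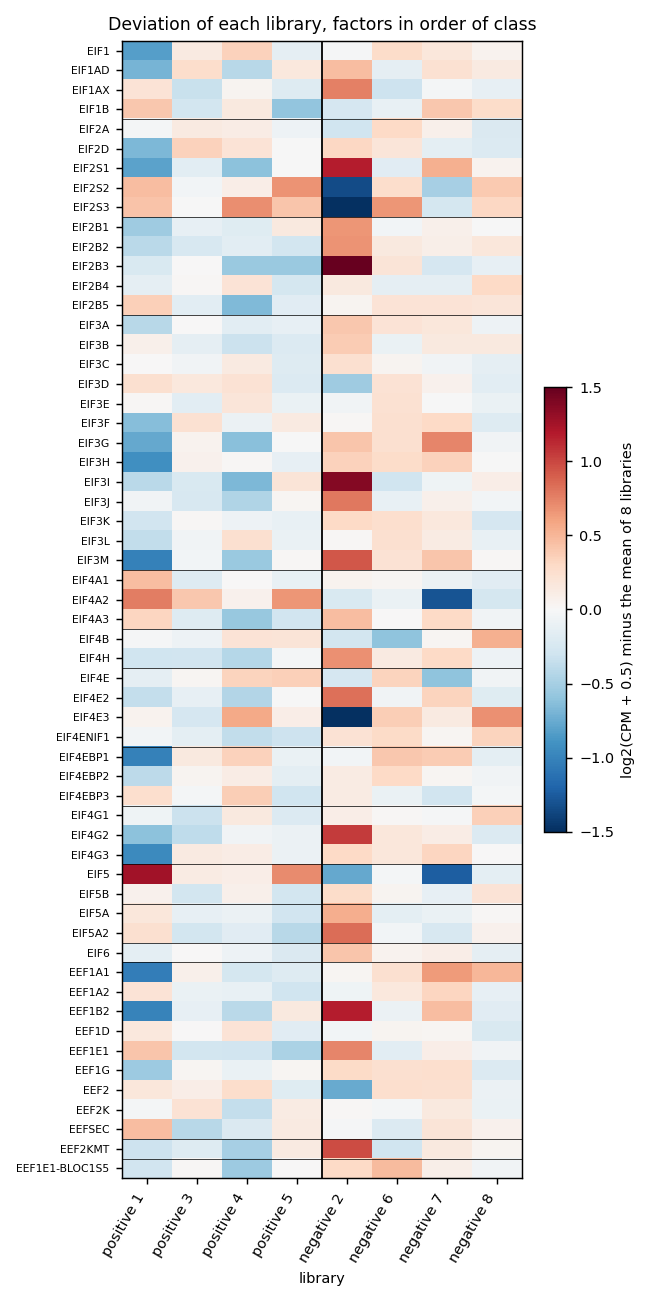
Deviation of each library (columns) from the mean of the 8 libraries, as log2(CPM + 0.5), for the tested factor transcripts (rows, in order of class, without the Y-linked EIF1AY); red is above and blue below the mean, and the colour scale ends at 1.5. The column of negative 2 holds the strongest colours, with EIF2B3, EIF3I, EIF2S1 and EEF1B2 high and EIF2S3, EIF2S2 and EIF4E3 low, whereas the rows of EIF4A2 and EIF5 are red or pale red in positive and blue or pale in negative libraries.

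The pathway around these factors was described with lists of related genes. Of 5 tested genes for eIF2 kinases and phosphatase subunits, 0 had an unadjusted p under 0.05 in edgeR's or DESeq2's test. EIF2AK2 (PKR), EIF2AK3 (PERK) and EIF2AK4 (GCN2) were at -0.31, -0.24 and -0.21, and PPP1R15A and PPP1R15B, which direct dephosphorylation of eIF2α, at 0.36 and 0.41, each with a 95% interval that spanned 0. Over all tested rows 14.4% had an unadjusted p under 0.05, 7.52% higher and 6.85% lower. Of 13 tested genes of mTORC1 and the MNK kinases, 1 (7.69%) was higher and 0 lower at that level. This was RPTOR, the subunit that recruits mTORC1 substrates such as the 4E-BPs. It was at 51.6, 31.6, 32.0 and 32.4 CPM in positive 1, 3, 4 and 5 and at 22.7, 23.9, 30.9 and 26.2 in negative 2, 6, 7 and 8, a log2 fold change of 0.51 (0.04 to 0.97; edgeR adjusted p 0.324) that was 0.30 without positive 1.

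Of 5 tested genes for poly(A) binding, 1 (20%) was lower and 0 higher at an unadjusted p under 0.05, where 6.85% of all tested rows were lower. This was PABPC1, the main poly(A)-binding protein and itself a TOP mRNA, at 1815, 2883, 3379 and 2673 CPM in positive and 3530, 3875, 4071 and 3234 in negative libraries. Its log2 fold change was -0.45 (-0.88 to -0.02; edgeR adjusted p 0.333) and -0.30 without positive 1. Of 5 other initiation genes, 1 (20%) was likewise lower and 0 higher at that level. This was DENR, which releases tRNA in recycling and helps reinitiation, lower without overlap, at 47.9, 50.2, 48.4 and 59.2 CPM in positive and 93.6, 60.8, 77.0 and 59.6 in negative libraries (log2 fold change -0.50, -0.90 to -0.10; edgeR adjusted p 0.312; -0.34 without negative 2). Of 4 tested termination and rescue genes, 0 had an unadjusted p under 0.05 in edgeR's test, and GSPT1, which encodes the release factor eRF3a, was at -0.40 (-0.81 to 0.001) without overlap, and at -0.22 without negative 2.

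Of 16 tested non-ribosomal TOP transcripts, 9 of them members, 4 were lower and 0 higher at an unadjusted p under 0.05, with a median log2 fold change of -0.25. Over all tested rows 6.85% were lower and 7.52% higher, with a median of -0.02. Of the 16, 11 had a log2 fold change below 0 and 5 above. Highest were TPT1 at 0.64 (-0.15 to 1.44) and NAP1L1 at 0.44 (-0.26 to 1.13), both lowest in negative 2. The 4 lower TOP transcripts were EEF1A1, EEF1B2, PABPC1 and NPM1, which encodes a nucleolar chaperone. Without positive 1, EEF1B2 and PABPC1 did not have an unadjusted p under 0.05 in edgeR's test. NPM1 was at 905, 812, 804 and 761 CPM in positive and 1625, 1086, 1131 and 953 in negative libraries, without overlap, at -0.55 (-0.95 to -0.14; edgeR adjusted p 0.309) and at -0.35 without negative 2.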

How the data were processed

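Estimated counts per gene were deposited by the authors as whole numbers, not scaled to depth, so rounding altered nothing. The submitters' processing notes name fastp 0.20.1, Salmon 1.9 and GRCh38, and the annotation is not given. Total RNA was isolated with Trizol and turned into amplicon libraries for Ion Torrent, per the labels' protocols. Such a kit reads a short stretch of each transcript, so levels were not compared between genes, and shares of a library are shares of counts.

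Rows were kept with filterByExpr (minimum count 10, total 15), which left 11351 of 13841, and tested with edgeR 4.0.16 in R 4.3.3 (TMM scaling, quasi-likelihood test, robust), adjusted by Benjamini-Hochberg over all tested rows at 0.05. Fold changes are positive over negative and two-sided, CPM values are TMM-scaled, and values are given in the order of library numbers 1, 3, 4, 5 and 2, 6, 7, 8. Alternatives used DESeq2 1.42.0 and limma 3.58.1, other scalings and filters, and left-out libraries. The methods were also run on simulated counts. No library stood apart there, as positive 1 and negative 2 did here, so that run could not show how such libraries are handled. Groups came from the labels. Replicates of a group differed by more than sampling noise (chi-square per degree of freedom at least 8.44). Intervals come from edgeR's fit and cover counting noise and the spread between these libraries. Amplicon reads carry no molecular identifiers, so noise from amplification was not measured apart.

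Members and lists were chosen with earlier results of these data known. Values in every library are given for members with an unadjusted p under 0.05 or without overlap, and for 14 core members. EIF2S2, EIF2S3, EIF3H, EIF3I, EIF4E3 and RFC4 were singled out after their values were seen. Of the other lists, members at an unadjusted p under 0.05 were to be named, and GSPT1, DHPS, DOHH, TPT1, NAP1L1, the eIF2 kinases and the phosphatase subunits were added. Gene coordinates are from GENCODE 29, sequences from RefSeq's GRCh38.p14 table, in which 50 of 60 members were matched. Members on chromosomes 8 and Y were not searched.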

Additional observations from a re-analysis of the deposited data

Results flagged for a closer look

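In 3 of 48 groups of 4 libraries examined, those of the members given library by library, 1 library lay apart from the other 3. Apart is meant relative to the range of the 4 values, for which chance alone gives about 1 in 20, a similar share. All were genes of eIF2B in negative 2. EIF2B2 was at 116 CPM there and at 77.7 to 82.1 in the other negative libraries, EIF2B3 at 30.4 against 8.65 to 12.0, and EIF2B5, in the other direction, at 24.0 against 26.5 to 27.0. The gap for EIF2B5 was small, and it was flagged because the other 3 values lay close together.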

How the results depend on the processing

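No member passed an adjusted p of 0.05 in any of the 20 alternatives. Of all rows, 53 passed it with DESeq2, 1 without negative 6, 1 without negative 8 and 0 in the other alternatives. The 13 members at an unadjusted p under 0.05 kept their direction in each alternative. EIF4A2, EIF5, EIF2B2 and EIF3M also kept an unadjusted p under 0.05 throughout. The number of lower members at that level, 11, was 6 with scaling by library totals and 7 with upper quartile scaling, and 5 to 12 with 1 library left out (7 without negative 2 or negative 7, 5 without positive 4). The share of all rows at that level, in either direction, moved as well. From 14.4% it went to 13.1% with library totals and 13.8% with upper quartile scaling. With 1 library left out it ranged from 9.7% (without negative 2) to 17.2% (without negative 8). It was 10.9% without negative 7 and 10.7% without positive 4. The higher members numbered 2 or 3. The median over members, -0.22, was -0.096 with library totals, where the median of all rows also moved, from -0.02 to 0.10, so the difference between them was -0.20 and -0.19. It was -0.099 without both positive 1 and negative 2, and -0.27 to -0.16 with 1 library left out. Of 456 values of single members under alternatives 17 changed sign, in 5 members near 0. With 1 library left out, EIF1 ranged from -0.33 to 0.0036 (without positive 1), EIF4A1 from -0.057 (without positive 1) to 0.18, EIF5A from -0.28 to 0.013, EEF2 from -0.032 to 0.24 and EEF2K from -0.087 to 0.11. EIF4A1 was at -0.028 with limma voom and -0.0051 without both libraries. EIF5A turned without negative 2. EEF2 was at -0.036 with voom and -0.052 without both. EEF2K was at 0.11 with library totals, 0.062 with upper quartile scaling, 0.044 with a minimum count of 50, 0.050 with voom and 0.028 without both, and also turned without positive 1, negative 2, positive 4 or negative 7. The causes were not tested. The edgeR fit with its bias-adjusted method and the count without 4E-BP and readthrough genes were added after seeing the data. No paired analysis was possible because each library number was used once. Members had 95% intervals of log2 fold change reaching 0.47 to each side at the median.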

Other observations

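Enzymes that modify the factors were a further list. An unadjusted p under 0.05 was found for 14.4% of all tested rows, 7.52% higher and 6.85% lower. Of 9 tested genes for hypusine and diphthamide, the modified residues of eIF5A and eEF2, 1 (11.1%) was higher and 0 lower at that level. This was DPH6, which completes diphthamide, at 24.9, 20.3, 20.9 and 20.4 CPM in stained (positive 1, 3, 4 and 5) and 12.4, 14.7, 15.7 and 17.5 in unstained cells (negative 2, 6, 7 and 8). The groups did not overlap, and the log2 fold change of 0.52 (0.10 to 0.94; edgeR adjusted p 0.312) was 0.44 without positive 1 and 0.45 without negative 2. DHPS and DOHH, which make hypusine, were at -0.05 and 0.04.

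Beside the 14.4% of all tested rows at an unadjusted p under 0.05 (6.85% lower), 1 (10%) of 10 tested factors of mitochondrial translation was lower and 0 higher. Their median log2 fold change was -0.06. The lower gene was TSFM, the exchange factor for the mitochondrial elongation factor Tu, at 18.7, 19.3, 15.1 and 18.5 CPM in positive and 35.6, 22.2, 23.6 and 21.8 in negative libraries (log2 fold change -0.53, -0.998 to -0.06; edgeR adjusted p 0.320). The groups did not overlap, and the value was -0.32 without negative 2.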
